A study of Mus musculus with 6 samples.

Results

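Megakaryocyte and platelet genes were examined in haematopoietic stem cells (HSCs) as 10 genes, Selp, Mmrn1, Vwf, Itga2b, Itgb3, Gp1bb, Gp1ba, Gp9, Pf4 and Gp5. Members were the probe sets to which the platform's probe table gave exactly 1 of these symbols. This found 14 probe sets for 9 of the 10 genes, among 45101 on the array, and Gp1ba was not analysed here. Gene expression had been measured on 6 Affymetrix arrays, 3 from HSCs of Lrg-47-/- (Irgm1-/-) mice, in which an interferon-induced GTPase gene is mutated, and 3 from HSCs of wild-type (WT) mice. All mice are labelled C57BL/6, aged 8 to 12 weeks and kept free of specific pathogens, and no other allele or treatment is given for either group. In both groups the HSCs had been sorted from whole bone marrow as the side population, by efflux of a Hoechst dye, together with antibodies to lineage antigens, Sca-1 and c-kit. The labels do not say whether the arrays of a group came from separate mice, so p-values measure the spread between arrays, which may be technical.

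Megakaryocytes are the bone marrow cells that shed platelets. They carry the platelet's adhesion machinery: the GP Ib-IX-V complex, which binds von Willebrand factor at a damaged vessel wall, and the integrin αIIbβ3, which binds fibrinogen and links platelets to each other. Their alpha granules store von Willebrand factor, platelet factor 4, multimerin and P-selectin, which is carried to the surface on activation. In mouse bone marrow some of these genes are also transcribed in stem cells, and Vwf has been used to mark stem cells biased towards platelets. Selp, Vwf and Mmrn1 are transcribed in endothelium too. GATA and ETS family factors drive many of these genes in megakaryocytes.

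The promoters of the 3 genes with a called probe set below are shown to set those words beside the expression values. They are the 250 bases before the annotated start, 5′ to 3′ on the gene's strand, from RefSeq on build GRCm38.p6. Capitals mark GATA words (the searched words were AGATAA, then the word AGATAG, then the word TGATAA, then the word TGATAG) and ETS words (the searched words were AGGAAG and then the word CGGAAG) on either strand, so that CTTCCT and likewise CTTCCG are ETS words read on the opposite strand, and CTATCA is a GATA word read there.
Selp (chr1:164115014-164115263, plus strand): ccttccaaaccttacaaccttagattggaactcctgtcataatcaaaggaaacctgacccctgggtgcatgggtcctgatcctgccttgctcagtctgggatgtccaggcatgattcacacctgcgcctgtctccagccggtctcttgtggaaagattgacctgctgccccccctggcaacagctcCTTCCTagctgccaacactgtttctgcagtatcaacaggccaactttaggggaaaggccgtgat
Gp1bb (chr16:18622404-18622653, minus strand): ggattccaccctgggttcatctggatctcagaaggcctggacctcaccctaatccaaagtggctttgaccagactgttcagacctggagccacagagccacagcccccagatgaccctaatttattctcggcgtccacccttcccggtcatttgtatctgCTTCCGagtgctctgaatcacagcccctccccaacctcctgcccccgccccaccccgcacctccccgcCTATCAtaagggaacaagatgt
Mmrn1 (chr6:60944067-60944316, plus strand): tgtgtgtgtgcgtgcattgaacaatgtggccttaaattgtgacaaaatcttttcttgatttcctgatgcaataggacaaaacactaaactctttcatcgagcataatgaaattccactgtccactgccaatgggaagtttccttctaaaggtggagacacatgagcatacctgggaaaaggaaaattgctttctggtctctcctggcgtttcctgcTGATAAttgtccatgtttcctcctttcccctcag
The Selp window held 1 ETS word and 0 GATA words, the Gp1bb window 1 of each, and the Mmrn1 window 1 GATA word and 0 ETS words. No marked word overlapped another. Windows were given for 8 of the 10 genes, all but Vwf and Itgb3. An ETS word was present in 7 of these 8 and a GATA word in 4, against 39.2% and 26.5% of the 32851 promoter windows of the same length in the table. The TATA box word TATAAA was in 0 of the 8 and in 12.4% of all windows. Words this short occur often, and a match is a description of the sequence, not a binding site.

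Values are GCRMA expression values, on the log2 scale, as the authors deposited them. The median of an array lay between 3.67 and 3.73. The highest of 27 control probe sets for bacterial transcripts reached 3.00 to 3.18 on an array, and a probe set at or below that level is described as at control level. Probe sets differ in affinity, so levels are compared between groups within a probe set and never between genes. Irgm1 itself gave 7.68, 8.58 and 7.84 on the arrays labelled Irgm1-/- and 8.39, 8.57 and 8.36 on the WT arrays. Its difference did not pass (-0.41, adjusted p = 0.475). Which part of the gene is deleted is not in the labels, so this probe set does not check the genotype, and the groups are called knockout-labelled and WT.

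Of the 14 probe sets, 10 lay above the array median on 3 or more of the 6 arrays of either group and were tested. They cover 8 genes. The 4 others, for Gp5 and as the dimmer probe sets of Mmrn1, Itgb3 and Gp1bb, lay between 1.57 and 3.24 on all 6 arrays, and their groups differed by at most 0.08 in either direction. Selp rose on the knockout-labelled arrays by 3 probe sets, and Mmrn1 fell by 1 (limma, adjusted p under 0.05). A dim Gp1bb probe set was also called higher, but it was above the median on the 3 knockout-labelled arrays and on 0 WT arrays, so it entered the test only through the group where it is high, and the call was lost with no filter. With no filter the call of 1 of the 3 Selp probe sets was lost too. The 5 other tested probe sets, 1 each for Vwf, Itga2b, Itgb3, Gp9 and Pf4, did not pass. Over all 22580 tested probe sets 1.39% were called, 0.664% higher and 0.722% lower. The knockout-labelled arrays lay wholly above the WT arrays for 8 of the 10 probe sets, where the background was 11.5%, and wholly below for 1, where it was 11.0%. These counts include the 3 probe sets of Selp, and that of Gp1bb, which passed the filter only through the group where it is high. The 8 probe sets wholly above WT stand for 6 of the 8 tested genes. Members were chosen with earlier results of these data known, so the counts are a description and not a test against the background.

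**Figure D1:**
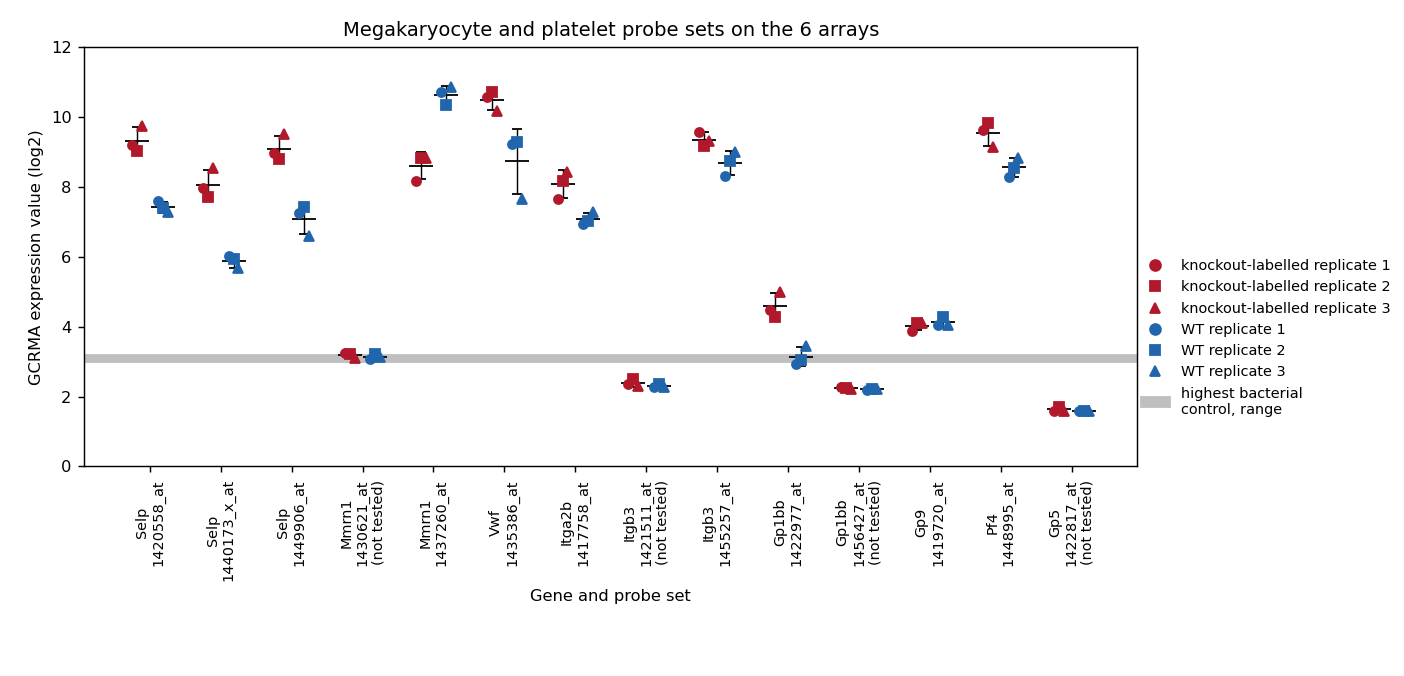
Deposited log2 expression values (vertical axis) of the 14 probe sets on each array, with knockout-labelled arrays in red left of WT arrays in blue, replicates by marker shape, and bars for the mean ± SD of 3 arrays. The grey band is the range of the highest bacterial control (3.00 to 3.18). The Selp groups are far apart upwards and the brighter Mmrn1 groups downwards, while the Gp9 groups overlap.

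P-selectin (Selp) is the granule adhesion receptor that binds white cells when it reaches the platelet or endothelial surface. Its probe set 1420558_at read 9.20, 9.02 and 9.76 on the knockout-labelled arrays, against 7.59, 7.40 and 7.28 on the WT arrays. The lowest knockout-labelled array lay 1.42 above the highest WT array, more than either group's own spread. The difference was 1.90 (SE 0.23, 95% interval 1.38 to 2.43, adjusted p = 0.0135), a fold of 3.74. A second Selp probe set, 1440173_x_at, read 7.97, 7.71 and 8.54 in knockout-labelled cells, against 6.01, 5.93 and 5.67 in WT cells (difference 2.20, SE 0.25, adjusted p = 0.0112). The third, 1449906_at, read 8.97, 8.80 and 9.51 on the knockout-labelled arrays, against 7.26, 7.43 and 6.61 on the WT arrays (difference 1.99, SE 0.28, adjusted p = 0.0261). All 3 probe sets were highest on knockout-labelled replicate 3 and lowest on WT replicate 3. The gap between actin 3' and 5' probe sets, a sign of RNA quality or amplification, was also widest (3.56) on that knockout-labelled array and narrowest (2.57) on that WT array, and its part in the Selp difference was not tested. The Selp probe sets share a transcript and RNA, so they check the probes and not the animals. With a single array left out, the differences stayed between 1.69 and 2.38. Without WT replicate 1 or WT replicate 2 none of the 3 was called (adjusted p from 0.0587 to 0.0969), within ranges up to 0.125 over all alternatives. Without knockout-labelled replicate 1 only 1440173_x_at was called, and 1449906_at also lost the call without knockout-labelled replicate 2 (adjusted p = 0.0676) or 3 (0.05 after rounding).

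Multimerin 1 (Mmrn1), which binds and stores factor V in the alpha granule, went the other way. Probe set 1437260_at read 8.16, 8.83 and 8.84 on the knockout-labelled arrays, against 10.71, 10.35 and 10.85 on the WT arrays. The groups were 1.51 apart at their nearest arrays. The difference was -2.03 (SE 0.23, 95% interval -2.57 to -1.48, adjusted p = 0.0122), a level 4.08-fold lower on the knockout-labelled arrays. Mmrn1 was well above control level in both groups. The second Mmrn1 probe set, 1430621_at, lay between 3.07 and 3.24 on all arrays and was not tested. The Mmrn1 call was lost without WT replicate 1 (-1.99, adjusted p = 0.0696) and without WT replicate 2 (-2.17, adjusted p = 0.0502). It was also lost when the replicate number was fitted as a block (adjusted p = 0.0601). Over all alternatives the adjusted p lay between 0.00154 and 0.0696. The call held without WT replicate 3 and without each knockout-labelled array.

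Von Willebrand factor (Vwf), the multimeric ligand that tethers platelets through GP Ib, had its only probe set at 10.58, 10.72 and 10.18 on the knockout-labelled arrays. The WT arrays read 9.23, 9.29 and 7.67. The knockout-labelled values lay close together and all above WT, whereas WT replicate 3 stood 1.06 below the WT mean. The difference of 1.76 (SE 0.42, 95% interval 0.77 to 2.75) did not pass (adjusted p = 0.112). Without WT replicate 3 the difference was 1.23 (adjusted p = 0.0618). It passed when arrays were weighted (1.55, adjusted p = 0.0472) and when the filter was set at the 70th percentile (adjusted p = 0.0372), while the highest adjusted p of any alternative was 0.298.

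**Figure D2:**
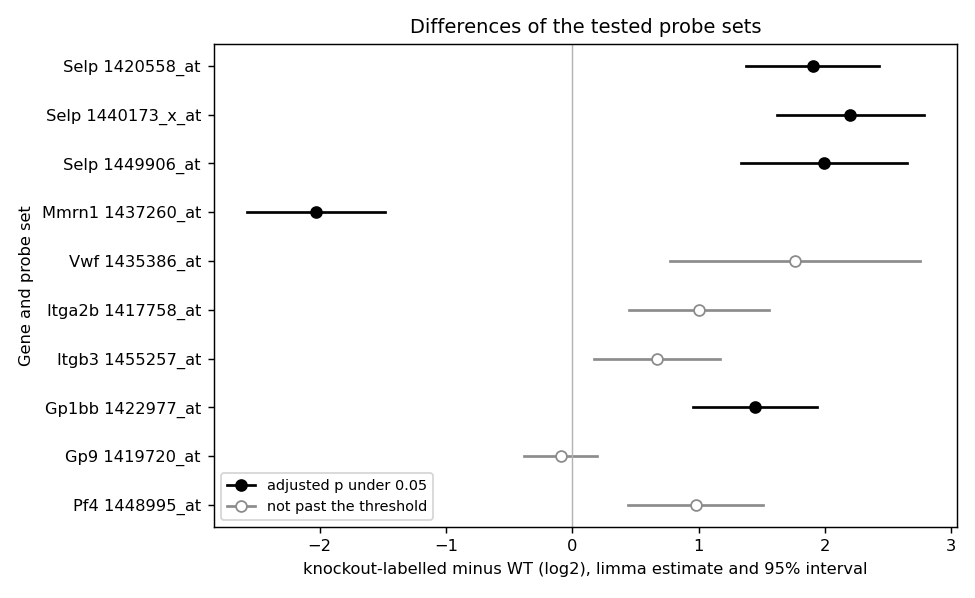
Limma estimates of the knockout-labelled minus WT difference (horizontal axis, log2) with 95% intervals for the 10 tested probe sets. Filled points, adjusted p under 0.05, are the 3 Selp probe sets, Mmrn1 and Gp1bb. Intervals of Vwf, Itga2b, Itgb3 and Pf4 lie above 0 without passing the adjusted threshold, and that of Gp9 spans 0.

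GP Ib-IX-V is the receptor for von Willebrand factor, built from GP Ibα, GP Ibβ, GP IX and GP V. Gp1bb, the GP Ibβ subunit that is disulfide-linked to GP Ibα, read 4.47, 4.29 and 4.99 on the knockout-labelled arrays by 1422977_at. The WT arrays read 2.93, 3.06 and 3.44, so that 2 of them were at control level. The groups did not overlap, and the difference was 1.44 (SE 0.21, adjusted p = 0.029). No fold is given, since the WT values are near or at control level. The call was lost with no filter on dim probe sets (adjusted p = 0.0639) or when the filter was lowered to the 25th percentile (0.0551). So it was without knockout-labelled replicate 1 (0.0988) or 2 (0.0541) and without WT replicate 1 (0.114) or 2 (0.123), within a range of 0.00831 to 0.123. Its second probe set stayed between 2.20 and 2.26 on all arrays, and a probe set that names both Septin5 and Gp1bb was at control level on all 6. Gp9, which encodes the GP IX subunit of the complex, read 3.89, 4.11 and 4.11 on the knockout-labelled arrays, against 4.04, 4.28 and 4.06 on the WT arrays. These groups overlapped, with a difference of -0.09 (95% interval -0.38 to 0.20, adjusted p = 0.765). Gp5, the GP V subunit, was at control level on every array, with 1.60, 1.70 and 1.60 in knockout-labelled cells and 1.57, 1.59 and 1.58 in WT cells.

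For both chains of the fibrinogen receptor and for platelet factor 4, the 3 knockout-labelled arrays lay above every WT array, by less than the gap seen for Selp, and none of these differences passed. Itga2b, the αIIb chain known as CD41, read 7.66, 8.17 and 8.43 on the knockout-labelled arrays, against 6.94, 7.01 and 7.29 on the WT arrays (difference 1.0, SE 0.24, 95% interval 0.45 to 1.56, adjusted p = 0.107). Its partner Itgb3, the β3 chain, read 9.59, 9.17 and 9.32 on the knockout-labelled arrays, against 8.33, 8.75 and 8.99 on the WT arrays by 1455257_at (difference 0.67, SE 0.21, 95% interval 0.17 to 1.17, adjusted p = 0.196). The nearest arrays of the groups were 0.37 apart for Itga2b and 0.18 for Itgb3, less than the range that the knockout-labelled arrays themselves spanned. The second Itgb3 probe set was at control level throughout. Pf4, the granule chemokine CXCL4, read 9.64, 9.82 and 9.14 on the knockout-labelled arrays, against 8.30, 8.55 and 8.84 on the WT arrays (difference 0.98, SE 0.23, 95% interval 0.44 to 1.51, adjusted p = 0.106). Itga2b and Pf4 passed when arrays were weighted (adjusted p = 0.0399 and 0.023), in ranges that reached 0.285 and 0.295. Itgb3 passed in 0 of its 15 alternatives.

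The knockout-labelled arrays did not rank alike for all members. Replicate 3 was the highest of them for Selp, Itga2b and Gp1bb, 2.33, 1.35 and 1.85 above the WT mean. It was the lowest for Vwf and Pf4, at 1.45 and 0.58 above it. Among the WT arrays, replicate 3 was the lowest for the 3 Selp probe sets and Vwf, and the highest for Mmrn1, Itga2b, Itgb3, Gp1bb and Pf4. Replicates have no order, and with 3 arrays a group these ranks are a description only.

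**Figure D3:**
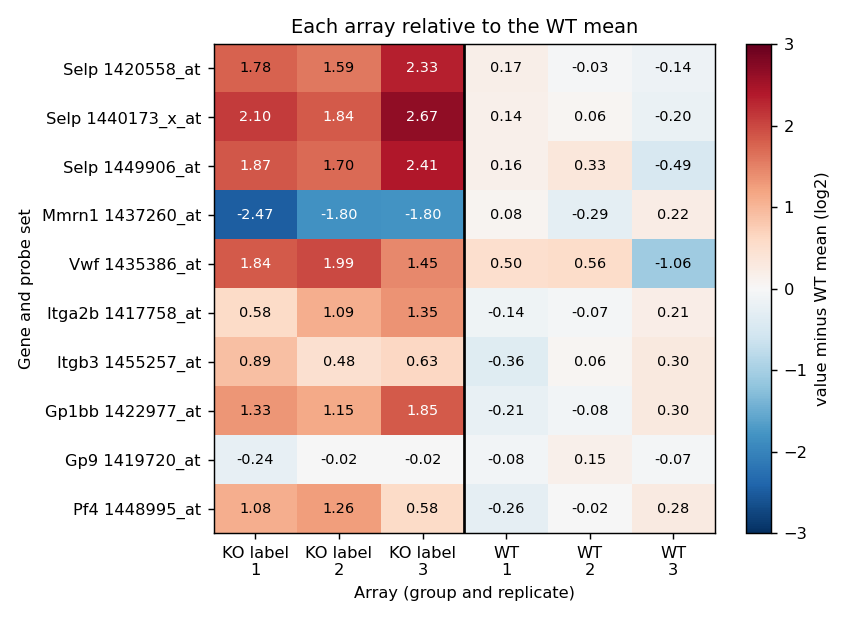
Value of each array minus the WT mean (log2, colour and printed number) for the 10 tested probe sets, knockout-labelled arrays left of WT arrays. Knockout-labelled replicate 3 is the highest array for Selp (2.33 for 1420558_at) and the lowest knockout-labelled array for Vwf (1.45) and Pf4 (0.58), and WT replicate 3 is 1.06 below the WT mean for Vwf.

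By the brightest tested probe set of each gene, no related gene outside the members passed the test. By further probe sets of such genes, limma called 1 of Pdgfa higher and 1 of Itgb5 lower. Of 86 other megakaryocyte and platelet genes in 5 lists, 79 had a probe set and 63 were tested, each by the brightest of its tested probe sets, and Itgb1 stands in 2 of the lists. Limma called 0 higher and 0 lower, with 18 at an unadjusted p under 0.05 (28.6%, against 16.4% of all tested probe sets). Their median difference was -0.05, against 0.01 over all tested probe sets, and 30.2% had groups that did not overlap, against 22.6% of all.

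Of 17 tested megakaryocyte transcription factors, 0 were called in either direction and the median difference was -0.13. Gata2, the GATA factor of stem and progenitor cells, read 9.25, 9.45 and 9.69 on the knockout-labelled arrays, against 10.17, 10.26 and 10.46 on the WT arrays (difference -0.83, SE 0.17, adjusted p = 0.0664). Lmo2, which bridges GATA and TAL1 complexes, differed by -0.40 (adjusted p = 0.109), and Mef2c, a factor of megakaryocyte and lymphoid development, by -0.48 (adjusted p = 0.139). By these probe sets the knockout-labelled arrays were wholly lower for all 3 genes. Of the 4 further tested Mef2c probe sets, 1 differed in the opposite direction. Gata1, the main GATA factor of megakaryocytes, was too dim to be tested and read 3.41, 3.01 and 3.51 in knockout-labelled cells, against 2.29, 2.75 and 2.52 on the WT arrays. It was picked once its values were known. The 3 WT arrays and 1 knockout-labelled array were at control level for it. Fli1, the ETS factor that binds many platelet promoters, differed by 0.51 (adjusted p = 0.427) and was picked in the same way.

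Among 15 tested genes of granule cargo and granule formation, 0 were called and the median difference was 0.05. The matrix protein Sparc read 5.65, 5.16 and 6.74 on the knockout-labelled arrays, against 3.79, 3.70 and 4.23 on the WT arrays (difference 1.94, SE 0.38, adjusted p = 0.0638). Thrombospondin 1 (Thbs1), an adhesive granule protein, read 6.99, 7.39 and 6.52 on the knockout-labelled arrays, against 7.92, 9.09 and 8.32 on the WT arrays (difference -1.48, SE 0.35, adjusted p = 0.105). Plek, the kinase C substrate pleckstrin of platelets and leukocytes, differed by -0.77 (adjusted p = 0.106). The 3 genes thus differed in opposite directions. F5, the factor V gene whose product multimerin 1 binds, differed by -0.12 (adjusted p = 0.76), and it is named after its values were seen, as the gene of the cargo of Mmrn1. The growth factor gene Pdgfa differed by 1.11 (adjusted p = 0.187) by its brightest tested probe set. Limma called its 1 further tested probe set higher, and Pdgfa is named for that call.

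Of 16 tested genes of platelet receptors and activation signalling, 0 were called and the median difference was -0.17. The smallest p-values were those of Gng11, a G protein gamma subunit (-0.86, adjusted p = 0.102), and Fcer1g, the signalling chain of the collagen receptor GP VI (-0.79, adjusted p = 0.159). Fermt3, the kindlin that activates αIIbβ3, differed by 0.46 (adjusted p = 0.22). Of 9 tested cytoskeletal genes 0 were called, with a median of -0.05. Myh9, the non-muscle myosin heavy chain of platelets, read 11.02, 11.03 and 11.05 on the knockout-labelled arrays, against 10.41, 10.44 and 10.60 on the WT arrays (difference 0.55, SE 0.12, adjusted p = 0.0879). The light chain kinase Mylk differed by -0.52 (adjusted p = 0.304) and tropomyosin 4 (Tpm4) by -0.28 (adjusted p = 0.557). The 1 further tested Mylk probe set differed in the opposite direction.

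Of 7 tested partners and relatives of the members 0 were called, with a median of 0.09. Mmrn2, an endothelial relative of Mmrn1, read 6.77, 5.42 and 8.11 on the knockout-labelled arrays, against 4.95, 4.29 and 5.15 on the WT arrays (difference 1.97, SE 0.62, adjusted p = 0.188). Emilin1, another protein of the multimerin family, differed by 0.57 (adjusted p = 0.421). Itgb5, a β chain that pairs with αv, differed by -1.56 (adjusted p = 0.118), and limma called 1 of the 3 further probe sets of this gene lower. Itgav, the other α chain that pairs with β3, differed by 0.09 (adjusted p = 0.781), and Selplg, the main ligand of P-selectin on white cells, by 0.10 (adjusted p = 0.89). Itgav and Selplg were picked once the values were known, as the binding partners of members.

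**Figure D4:**
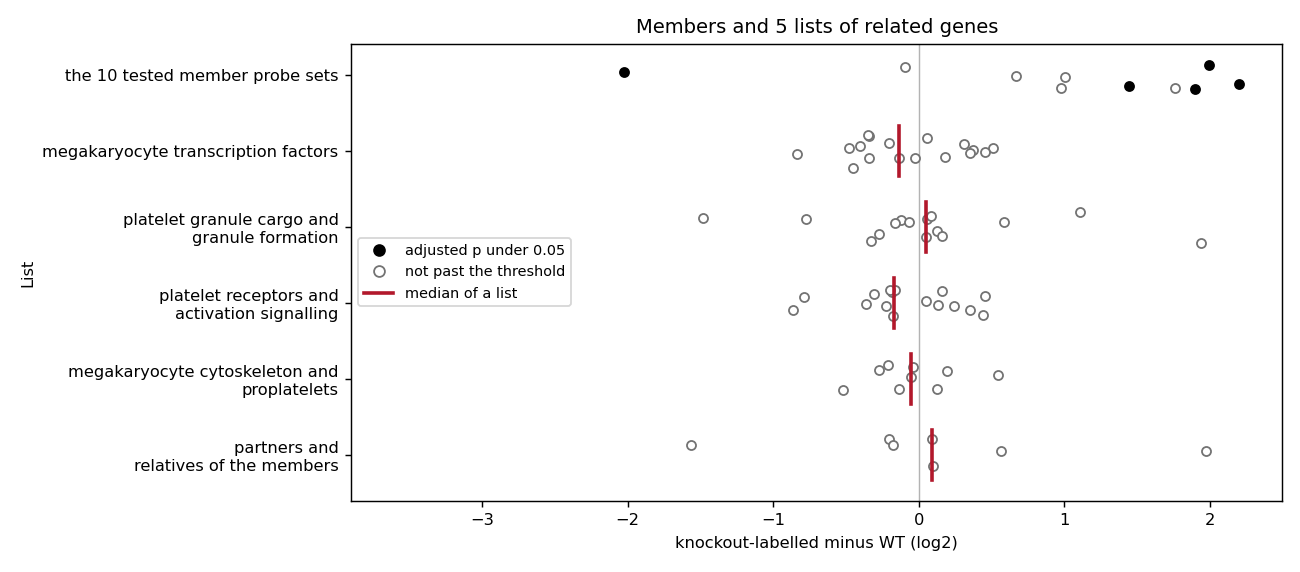
Knockout-labelled minus WT differences (horizontal axis, log2) of the 10 tested member probe sets (top row) and of the tested genes of 5 related lists, with filled points for adjusted p under 0.05 and red lines at the median of each list. List medians lie between -0.17 and 0.09, and none of the 63 tested list genes is filled.

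Of the 79 list genes with a probe set, 10 were at control level on all 6 arrays, as Gp5 was among the members. They were F13a1 (factor XIII subunit A), the collagen receptor genes Gp6 and Itga2, the ADP receptor genes P2ry1 and P2ry12, the thrombin receptor gene F2rl2, Treml1 of the granule membrane, the proplatelet tubulin gene Tubb1, the myosin light chain gene Myl9 and the endothelial selectin gene Sele. These genes were picked once the values were known. The granule chemokine gene Ppbp was at control level on the 3 knockout-labelled arrays, at 2.71, 3.10 and 2.76, and on 2 of the WT arrays, at 2.75, 2.95 and 3.92. A probe set that does not bind its transcript well reads the same as an absent transcript. On bulk arrays, a change in the number of cells of a type cannot be told apart from a change in RNA per cell.

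Markers of the sorted cells and of other cell types were read beside these results. Of 12 tested stem cell markers 0 were called, with 7 at an unadjusted p under 0.05 and a median difference of -0.35. Over all tested probe sets 16.4% had such a p. The knockout-labelled arrays were wholly lower for 5 of the markers and wholly higher for 1, against 11.0% and 11.5% of all tested probe sets. The log2 of the summed stem cell marker level was 14.5 to 14.7 on the knockout-labelled arrays, against 14.9 to 15.1 on the WT arrays, without overlap, and the part of this difference in the member differences was not tested. Kit read 8.63, 9.09 and 9.26 on the knockout-labelled arrays, against 9.50, 9.64 and 10.30 on the WT arrays (-0.82, adjusted p = 0.194). Cd34 differed by -0.59 (adjusted p = 0.135) and Slamf1, the CD150 antigen of stem cells, by 1.43 (adjusted p = 0.144). Kit was among the stains of the sort. Of 16 endothelial markers 12 were tested and 0 were called, with Pecam1 and Lyve1 at control level on all arrays. The log2 of the summed endothelial level was 11.5 to 11.9 on the knockout-labelled arrays, against 11.1 to 11.6 on the WT arrays. Cdh5, the endothelial cadherin, was at control level on all arrays but knockout-labelled replicate 3, where it read 4.8. Stab2, a receptor of sinusoidal endothelium, read 5.85, 4.44 and 8.31 on the knockout-labelled arrays, against 4.48, 4.42 and 4.11 on the WT arrays. The tight junction gene Cldn5 read 3.69, 3.21 and 5.90 on the knockout-labelled arrays, against 3.36, 3.18 and 3.52 on the WT arrays. Kdr, a VEGF receptor gene, was at 7.14 and Plvap at 7.07 on knockout-labelled replicate 3, and no other array exceeded 5.77 for Kdr or 5.63 for Plvap. These genes were picked once the values were known. Flt1, Eng and Icam2 were also highest on knockout-labelled replicate 3. Other markers of the list were not: Emcn was lowest there (5.32), Tie1, Tek and Robo4 were highest on WT replicate 1, and Esam and Egfl7 on WT replicate 2. All 3 Selp probe sets were highest on knockout-labelled replicate 3. Relative to the WT mean, Vwf was at 1.45 there, the lowest of the knockout-labelled arrays, and Mmrn1 was at -1.80. The part of endothelial cells in the member differences was not tested. The 3 endothelial markers with the smallest p were Icam2 (0.71, adjusted p = 0.108), Emcn (-0.86, adjusted p = 0.132) and Plvap (1.20, adjusted p = 0.242).

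Of 16 T and NK cell markers 15 had a probe set and 9 were tested. Of these 5 rose, Ccl5, Gzmb, Thy1, Ms4a4b and Klrd1, by 3.63 to 4.93, and 0 fell. The log2 of their summed level was 13.3, 13.2 and 14.3 on the knockout-labelled arrays, against 9.80, 9.0 and 9.99 on the WT arrays. Cd4 and Ncr1 were at control level on all 6 arrays, and Cd3d, Cd3g and Il2rb on the 3 WT arrays. Il2rb was at control level on 2 of the knockout-labelled arrays as well. Selp, Itga2b and Gp1bb were highest on the same array as this list, knockout-labelled replicate 3. Without that array the Selp differences were 1.69 for 1420558_at (adjusted p = 0.0208), 1.97 for 1440173_x_at (0.0196) and 1.78 for 1449906_at, whose call was lost (0.05 after rounding). Itga2b was then at 0.83 (0.132), Gp1bb at 1.24 (0.0374) and Mmrn1 at -2.14 (0.0267). The remaining knockout-labelled arrays still had the summed levels of 13.3 and 13.2, above every WT array, so leaving out replicate 3 does not remove the raised sum. Ccl5 alone read 12.81 and 12.77 on them, and the other called markers were above every WT array too. Tested markers near WT on these arrays were Cd3e (4.77 and 4.68, WT 4.47 to 4.66), Cd8a (3.74 and 3.81, WT 3.66 to 3.76) and Cd247 (3.42 and 3.62, WT 3.66 to 3.94). Cd3d, Cd3g and Gzma were too dim to be tested but lay above every WT array on both. Cd3d read 4.56 and 3.45 (WT 2.44 to 2.49), Cd3g 4.15 and 3.32 (WT 2.88 to 2.92) and Gzma 3.50 and 5.36 (WT 3.30 to 3.37). The part of T and NK cells in the member differences was not tested. Ms4a6c was the only one of 8 tested monocyte and macrophage markers called, higher by 1.53 (adjusted p = 0.0313). Cd14 differed by -1.25 (adjusted p = 0.0518), with the knockout-labelled arrays wholly lower, and Cd68 by 0.76 (adjusted p = 0.167). Of the 12 tested erythroid, B cell, neutrophil and mast cell markers 0 were called.

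The probe sets of other genes whose values followed each called member most closely over the 6 arrays were found by Pearson correlation. For Selp 1420558_at they were Ecm1 (r = 0.999), an extracellular matrix protein, the activation antigen Cd69 (0.995) and Tcf19 (0.994). The same genes led for 1440173_x_at, whereas Tubg1, Rad54b and Socs2 led for 1449906_at. For Mmrn1 they were Cilk1 (0.995), Depp1 (0.993) and Anln (0.992), and for Gp1bb AA386476, Frrs1 and Dock5 (0.992 to 0.995). All points share the split into 2 groups, and r was over 0.95 with 92 to 208 other probe sets for each called member, so such likeness is common in these data.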

How the data were processed

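Per the submitters' processing notes the authors made the values with GCRMA, which corrects background from probe sequence, normalises between arrays and summarises probes. For GCRMA the version is not given in the sources used here, nor are its settings. The deposited values are on the log2 scale, read from their range, and were used as they stood. RNA had been amplified linearly in 2 rounds, per the labels' protocols, which favours 3' ends. The actin 3' minus 5' gap was 2.81 to 3.56 on knockout-labelled and 2.57 to 3.16 on WT arrays.

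Of 45101 probe sets, 34958 had 1 symbol in the platform table, 932 several and 9211 none, and only those with 1 were named. The comparison used R 4.3.3 with limma 3.58.1 (lmFit, eBayes with intensity trend, 2-sided, knockout-labelled minus WT) over the 22580 probe sets above the array median on at least 3 arrays. P-values were adjusted by Benjamini and Hochberg over all of them, with a threshold of 0.05. Levels are log2, errors are SE of the fit, and bars in plots are SD of 3 arrays. The fit was tested on simulated data. Precision is limited by the number of arrays, 3 in each group.

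Members and lists were chosen with earlier results of these data known. Named genes are the members, called list genes, up to 3 more per pathway or marker list by smallest p where the text describes that list, and the 3 closest probe sets per called member. Alternatives were other filters, normalisations, variance models, array weights, a replicate block, single arrays left out, a threshold of 0.1 and 1 probe set per gene.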

Additional observations from a re-analysis of the deposited data

How the results depend on the processing

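No member's difference changed sign under any alternative that tested it. With no filter on dim probe sets, 49 probe sets were called higher and 54 lower in all, and 2 member probe sets higher. With a filter at the 25th percentile these counts were 62, 64 and 2, and at the 70th percentile, where Gp1bb and Gp9 were not tested, 3 related genes were called lower (Gata2, Thbs1 and Plek). With array weights 401 were higher and 463 lower, with 7 member probe sets higher, 2 related genes higher (Sparc and Myh9) and 2 lower (Gata2 and Itgb5). At an adjusted p under 0.1 the counts were 314 and 315 in all and 2 related genes higher and 1 lower. With 1 probe set per gene, 2 members were higher.

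Same-numbered arrays did not deviate together (correlations of -0.11, -0.02 and -0.28). With 3 arrays in each group, such correlations cannot decide whether the numbers pair the arrays. With the replicate block 27 probe sets were called higher and 41 lower, with 1 member higher (Gp1bb) and 0 lower. The calls of all 3 Selp probe sets (adjusted p = 0.0736 to 0.125) and of Mmrn1 (0.0601) were thus lost.

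With a single array left out, which also leaves fewer arrays, 17 to 138 probe sets were called higher and 28 to 129 lower. Member probe sets called higher ranged from 0, without WT replicate 1 or 2, to 4, and lower from 0 to 1. Related genes called higher ranged from 0 to 1 (Sparc, without knockout-labelled replicate 3), with 0 lower. Arrays of GCRMA values give no signal over background beyond the bacterial controls, and Gp1bb was near that level in WT.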
